A study of Arabidopsis thaliana with 8 samples.

Results

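CCA1, LHY and the REVEILLE proteins (RVE1 to RVE8) are related transcription factors of the plant circadian clock, each with a single MYB-like DNA-binding domain, and their transcripts were followed here in leaves of Arabidopsis thaliana. The genes were taken by locus, and all 10 were found among the 30361 array features, 1 feature each. The 8 arrays, 1 per RNA sample, held 4 samples of the wild type (WT) and 4 of DGTT2 line 57, transgenic plants that carry DGTT2, a diacylglycerol acyltransferase 2 gene of the green alga Chlamydomonas whose product makes triacylglycerol. Plants of both genotypes were 6 weeks old, and had been kept on soil at 22 C in a day of 16 h light and 8 h dark. The study asks how leaves respond when carbon is moved from surface lipids into oil. All transgenic samples come from 1 line, so what DGTT2 does and whatever else sets that line off from WT cannot be told apart, and neither the promoter of the transgene nor the hour of harvest is given in the labels. Every feature is an Arabidopsis locus, so the algal transcript could not serve as a check of the genotypes.

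In the Arabidopsis clock, CCA1 and LHY are made around dawn and repress genes that are used later in the day, many of which carry a short promoter sequence called the evening element. RVE8, RVE4 and RVE6 bind the same element and activate those evening genes, with LNK proteins as coactivators, and RVE3 and RVE5 belong to the same branch of the family. RVE1, RVE2 and RVE7 form a further branch that lies mainly on the output side, linking the clock to auxin, seed dormancy and light responses.

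The arrays lay on 2 slides, each with 2 of each genotype, and pairwise correlations between arrays across features ran from 0.988 to 0.995. Leaf identity was checked with 16 marker genes. The 5 mesophyll markers had values of 14.78 to 15.99 on the log2 scale, and 4 of them had means within 0.2 of the table's maximum of 15.99, where a difference between genotypes may not show. The dimmest leaf marker, MYB60 of guard cells, ran from 8.12 to 9.14. The values of the 6 markers of root, flower and seed ran from 4.65 to 8.17, reaching that range, and the median level of pseudogenes was 5.95. The mean over those 6 lay between 6.06 and 6.32 in DGTT2 arrays and between 5.82 and 6.40 in WT arrays. None of the 16 markers passed the test between genotypes (0.0725% of all features did), and the genotypes did not overlap in 3 (5.64% of all features). These were MYB60 of guard cells, higher in DGTT2 by 0.57, CASP1 of the root endodermis, higher by 0.83, and the seed albumin gene SESA2, lower by 0.77. Their part in the results below was not tested. In leaf RNA, fewer cells of a type and less transcript per cell cannot be told apart.

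Between the genotypes, 4 of the 10 genes had higher mean values in DGTT2 by 0.53 to 0.56 on the log2 scale, about 1.44-fold to 1.47-fold. They were CCA1, LHY, RVE8 and RVE1. RVE2 (difference -1.40) and RVE6 (-0.25) had lower means in DGTT2. RVE3, RVE4, RVE5 and RVE7 differed by 0.13 or less. The genes were chosen by family, with their log2 difference between the genotypes already known, so that difference is described here with its standard error (SE) and its 95% interval from limma, and no test is drawn from it. In limma's fit over all features, at a Benjamini-Hochberg adjusted p under 0.05, 0 of the 10 were called, where 22 of 30361 features (0.0725%) were, and 5 of the 10 had an unadjusted p under 0.05 (10.5% of all features did). The genotypes did not overlap in 3 of the 10, against 5.64% of all features. CCA1 and RVE8 were higher in this sense (2.31% of all features) and RVE2 lower (3.32%). Nothing is read from these counts.

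**Figure D1:**
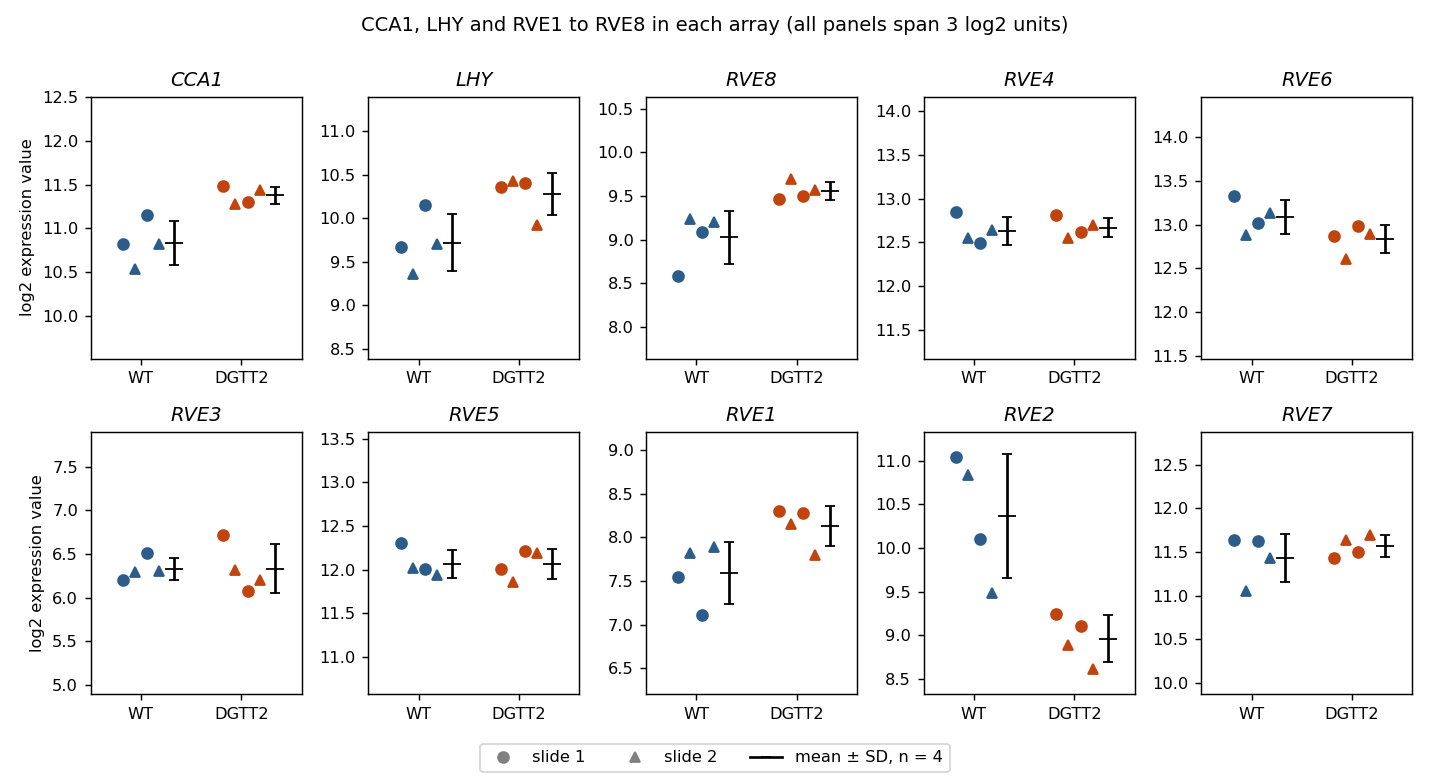
Log2 expression values (vertical axis, every panel spanning 3 log2 units) of the 10 genes in each WT array (blue) and DGTT2 array (orange), with circles for slide 1, triangles for slide 2 and bars for the mean ± SD (n = 4). CCA1 and RVE8 lie higher and RVE2 lower in all 4 DGTT2 arrays than in any WT array, while RVE3, RVE4, RVE5 and RVE7 overlap.

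CCA1 (AT2G46830) and LHY (AT1G01060), the pair of dawn repressors at the core of the clock, differed by nearly the same amount. The CCA1 values were 10.82, 10.53, 11.15 and 10.82 in WT replicates 1 to 4. In DGTT2 they were 11.48, 11.28, 11.30 and 11.44. Every DGTT2 array therefore lay above the highest WT array, replicate 3, by a narrow margin. The means were 11.38 ± 0.10 in DGTT2 and 10.83 ± 0.25 in WT (SD, n = 4 each), a difference of 0.54 (SE 0.13, 95% interval 0.24 to 0.85) or 1.46-fold.

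For LHY, a close relative of CCA1 with overlapping function, the WT values were 9.68, 9.36, 10.15 and 9.70. The DGTT2 values were 10.36, 10.43, 10.41 and 9.92. The genotypes overlapped, because DGTT2 replicate 4 fell below WT replicate 3, while the other DGTT2 arrays lay above all WT arrays. The difference was 0.56 (SE 0.18, 95% interval 0.15 to 0.97), or 1.47-fold. In WT the same arrays were at the ends for both genes, with replicate 2 lowest and replicate 3 highest. In DGTT2 this was not so, since replicate 4, by far the lowest for LHY, was second highest for CCA1.

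Of the activators that bind the evening element, RVE8 (AT3G09600) had the largest difference. Its WT values were 8.58, 9.23, 9.09 and 9.21, and its DGTT2 values were 9.46, 9.70, 9.50 and 9.57. All DGTT2 arrays were above all WT arrays, and WT replicate 1 was well below the rest of its genotype. The difference was 0.53 (SE 0.15, 95% interval 0.19 to 0.87), or 1.44-fold, and it was 0.38 without WT replicate 1.

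RVE4 (AT5G02840) and RVE6 (AT5G52660), which share the activating role of RVE8, differed less, a contrast that was not tested. RVE4 ran from 12.55 to 12.81 in DGTT2 and from 12.49 to 12.85 in WT, a difference of 0.04 (SE 0.11, 95% interval -0.21 to 0.29). RVE6 had WT values of 13.33, 12.88, 13.02 and 13.13 and DGTT2 values of 12.87, 12.60, 12.99 and 12.89. Its genotypes overlapped, with a difference of -0.25 (SE 0.13, 95% interval -0.54 to 0.04). Both intervals lie within 2-fold.

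RVE5 (AT4G01280) and RVE3 (AT1G01520), the less studied genes of this branch, had nearly equal means in both genotypes. RVE5 ran from 11.85 to 12.22 in DGTT2 and from 11.94 to 12.30 in WT. Its difference was 0.002 (95% interval -0.28 to 0.28). RVE3 was dim, with values of 6.07 to 6.72 close to the pseudogene median of 5.95, so that its level was not shown to lie above background. Its difference of 0.002 (95% interval -0.33 to 0.33) therefore says little about the transcript.

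The branch of RVE1 (AT5G17300), RVE2 (AT5G37260) and RVE7 (AT1G18330) held the widest range of differences. RVE1, which in Arabidopsis seedlings promotes growth through the auxin gene YUC8, had WT values of 7.55, 7.83, 7.12 and 7.88. Its DGTT2 values were 8.30, 8.16, 8.28 and 7.80. DGTT2 replicate 4 lay below WT replicates 2 and 4, so the genotypes overlapped, and the other DGTT2 arrays were higher than every WT array. The difference was 0.54 (SE 0.19, 95% interval 0.12 to 0.96), or 1.45-fold. Most of these values fall within the 4.65 to 8.17 of the root, flower and seed markers. The level of RVE1 was therefore not shown to lie above background, which limits what its difference says.

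RVE2, also known as CIR1, cycles with the clock and has been tied to seed germination. Its WT values were 11.04, 10.84, 10.11 and 9.48. The DGTT2 values were 9.24, 8.89, 9.10 and 8.62. All DGTT2 arrays lay below the lowest WT array, replicate 4, and the WT arrays themselves spread over 1.56 log2 units against 0.63 in DGTT2. The means were 8.96 ± 0.27 in DGTT2 and 10.37 ± 0.71 in WT (SD, n = 4 each), a difference of -1.40 (SE 0.32, 95% interval -2.12 to -0.69), which is 2.65-fold higher in WT. Leaving out 1 array at a time gave -1.70 to -1.18.

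RVE7, known as EPR1 and first described as a gene with a rapid response to phytochrome, ran from 11.43 to 11.70 in DGTT2 and from 11.05 to 11.64 in WT. The difference was 0.13 (SE 0.14, 95% interval -0.19 to 0.46), and it was 0.003 without WT replicate 2, the lowest array. AT3G10113, a locus that resembles RVE7, was at 12.86 ± 0.13 in DGTT2 and 12.61 ± 0.18 in WT (SD, n = 4 each), a difference of 0.25 (SE 0.12, adjusted p = 0.52, limma). Which probes make up a feature is not stated in the labels, so signal that the RVE7 and AT3G10113 features may share was not tested.

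**Figure D2:**
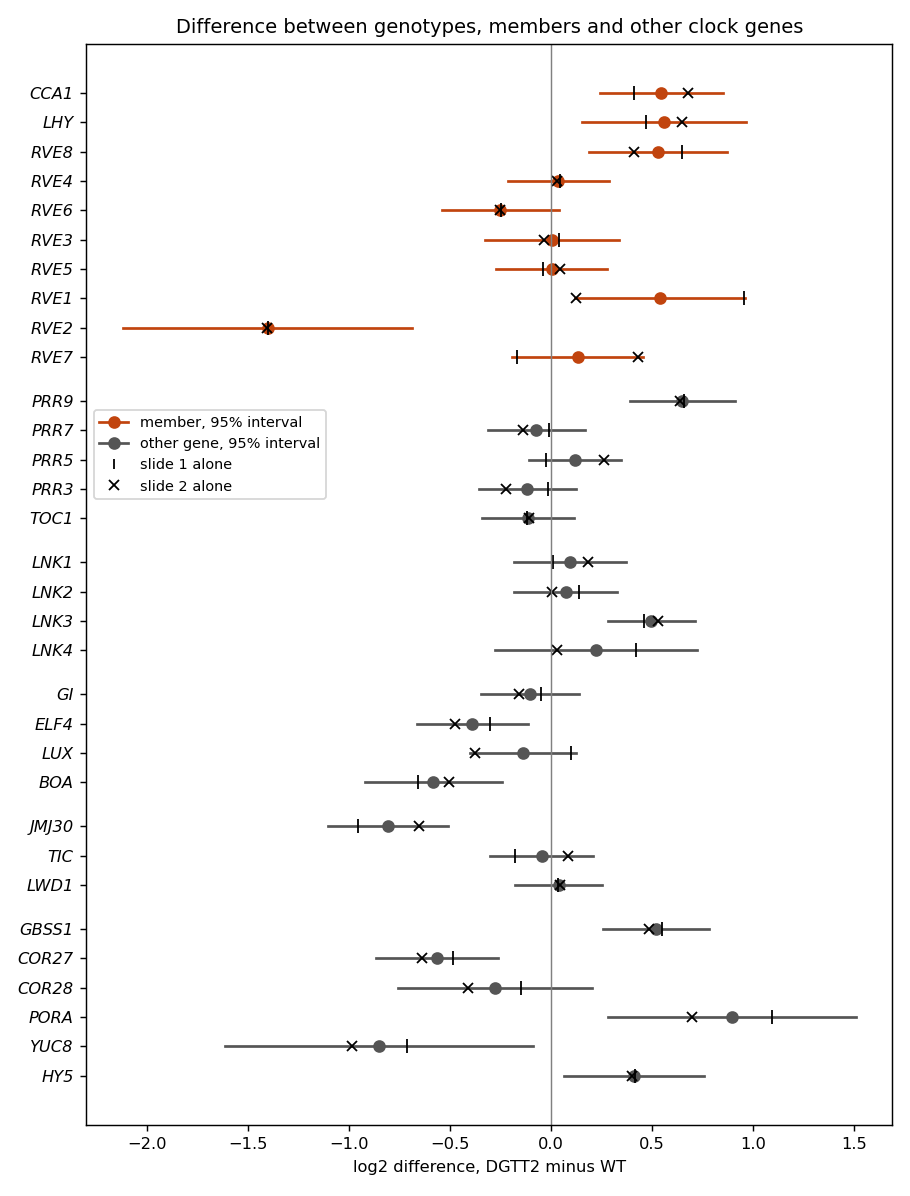
Log2 difference between DGTT2 and WT (horizontal axis) with its 95% interval from limma for the 10 genes (orange) and for most of the other clock and output genes named in the text (grey), with bars and crosses for each slide alone. RVE2 has the lowest value plotted, -1.40, and its value is nearly the same on both slides, whereas the values of RVE1 and RVE7 on the 2 slides lie far apart.

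Each slide held 2 arrays of each genotype, so the differences could be read within slides. For RVE2 they were -1.40 on slide 1 and -1.41 on slide 2, and for RVE6 -0.25 on both. CCA1 gave 0.41 on slide 1 and 0.68 on slide 2, LHY 0.47 and 0.65, and RVE8 0.65 and 0.41. RVE1 was less even, with 0.96 on slide 1 and 0.12 on slide 2, and RVE7 changed sign, from -0.17 to 0.43. RVE3 (0.04 and -0.04) and RVE5 (-0.04 and 0.04) also changed sign, with values near 0, and RVE4 gave 0.04 and 0.03. With slide as a fixed block the differences were as above, and 0 of the 10 genes were called against 0.227% of all features. WT always took positions 1 and 2 of a slide and DGTT2 positions 3 and 4, and the 2 factors cannot be told apart.

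The choice of the genes did not use the slides, so the difference between slides could be tested. With genotype in the model, 0 of the 10 genes differed between slides at an adjusted p under 0.05 (limma), as did 0 of all features (0%). At an unadjusted p under 0.05 there were 0 of the 10 and 9.31% of all features. RVE2 had the largest value of the 10, slide 2 minus slide 1 being -0.42 (95% interval -1.10 to 0.27, adjusted p = 0.755), then LHY at -0.29 (-0.66 to 0.07, adjusted p = 0.648) and RVE8 at 0.27 (-0.03 to 0.56, adjusted p = 0.591). RVE8 and RVE1 were higher on slide 2 and the other 8 on slide 1, none past the threshold. Of all 30361 features, 15771 were higher on slide 1. Without 1 array the slide differences ran from -0.69 to -0.15 for RVE2, -0.41 to -0.18 for LHY and 0.14 to 0.35 for RVE8. The interval for RVE2 still allows a slide difference of over 2-fold.

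How far arrays of the same genotype spread is also separate from the difference between genotypes. The within-genotype SD of RVE2 was 0.54, higher than in 95.9% of all features and 92.8% of the 1828 features whose mean lay within 0.5 of its own. Those of LHY (0.29) and RVE1 (0.30) were at the percentiles 72.8 and 74.7 of all features, and among features of like level at 75.3 and 41.8. CCA1 was at 0.19 and RVE8 at 0.23, near the middle of all features at the percentiles 48.3 and 59.4. RVE4 had the least spread of the 10, 0.14, at percentile 24.9. In 8 of the 10 genes the WT arrays had the larger SD, against 55.0% of all features. The exceptions were RVE3 and RVE5. For RVE8 the SD of 0.23 became 0.09 without WT replicate 1, and for RVE7 it went from 0.21 to 0.12 without WT replicate 2.

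**Figure D3:**
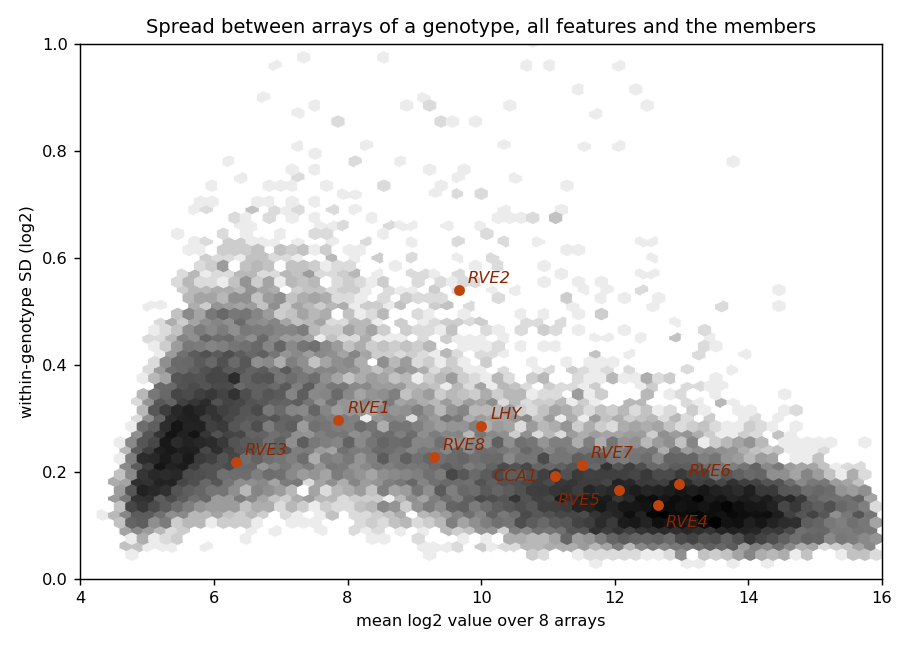
Within-genotype SD (vertical axis, log2) against mean log2 value over 8 arrays for all features, darker where features are denser on a log scale, with the 10 genes as orange points. RVE2, at 0.54, lies above most features of its level, and 181 features with an SD over 1 are outside the axis.

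Deviations of each array from the mean of its genotype showed which samples carried this spread. WT replicate 1 was high for RVE2 by 0.67, and for RVE4, RVE5, RVE6 and RVE7 by 0.20 to 0.24, and low for RVE8 by -0.45. WT replicate 3 was high for CCA1 by 0.32 and for LHY by 0.43, and low for RVE1 by -0.48. WT replicate 2 was low for CCA1, LHY and RVE7, by -0.30, -0.36 and -0.39, and high for RVE2 by 0.47 and for RVE1 by 0.23. WT replicate 4 was close to its mean in most genes, with RVE2 at -0.89 the main exception. Among DGTT2 arrays, replicate 4 was low for LHY, RVE1 and RVE2, by -0.36, -0.33 and -0.35. DGTT2 replicate 1 was high for the dim RVE3 by 0.39 and for RVE2 by 0.28. DGTT2 replicate 3 was low for RVE3 by -0.26, and DGTT2 replicate 2 for RVE5 and RVE6, by -0.22 and -0.23. No array was at the same end for all 10 genes.

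**Figure D4:**
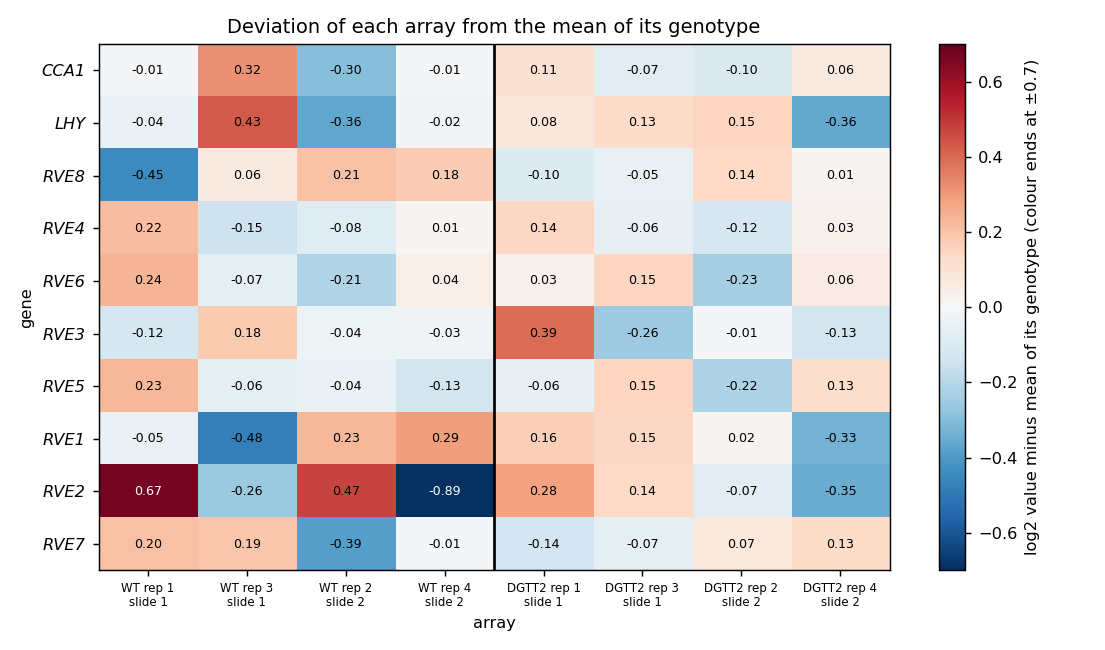
Deviation of each array (columns, with its slide) from the mean of its genotype, in log2 units, for each of the 10 genes (rows), red above and blue below that mean. WT replicates 2 and 3 lie at opposite ends for CCA1 and LHY, and RVE2 has the most uneven WT arrays.

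These deviations were also used to rank all features by likeness to CCA1, LHY and RVE8, with Pearson's r over 8 arrays as a description. Nearest to CCA1 were VAR3, a chloroplast protein gene (r = 0.989), AT1G36720 (r = 0.989) and FWA, a homeodomain gene (r = 0.986) whose means of 5.02 and 5.33 lay below the pseudogene median. LHY came at rank 3597 of 30360 (r = 0.63), RVE7 at rank 2878 (r = 0.67) and RVE1 near the far end at rank 28210 (r = -0.70). Nearest to LHY were AT2G35480 (r = 0.993), BRS1 (r = 0.980) and NEDD1 (r = 0.978), with CCA1 at rank 2493. Nearest to RVE8 were AT3G46380 (r = 0.983), AT1G60360 (r = 0.976) and AT2G04865 (r = 0.974). Its relatives RVE4, RVE5 and RVE6 had r of -0.79, -0.76 and -0.79 with it, at ranks 29642, 29381 and 29638. In WT replicate 1 RVE8 deviated by -0.45 and RVE4, RVE5 and RVE6 by 0.22 to 0.24. In DGTT2 replicate 2 RVE8 deviated by 0.14, and RVE4, RVE5 and RVE6 by -0.12, -0.22 and -0.23. How far the 3 values rest on a single array was not tested, and r without WT replicate 1 was not computed. With 8 arrays and 30360 candidates, the r of the nearest features, so close to 1, say little of any single gene.

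The rest of the clock was examined through 41 further genes of the pathway and its outputs. None was called over all features, against 0.0725% of all features, and 10 of the 41 had an unadjusted p under 0.05 (limma), 5 higher and 5 lower, where 10.5% of all features did. The median difference over the 41 was -0.03, over the 10 family members 0.08, and over all features -0.001. The genotypes did not overlap in 7 of the 41, against 5.64% of all features.

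The PRR proteins repress CCA1 and LHY in sequence through the day. PRR9, the earliest of them, was at 10.86 ± 0.07 in DGTT2 and 10.21 ± 0.20 in WT (SD, n = 4 each), a difference of 0.65 (SE 0.12, adjusted p = 0.0945, limma), with every DGTT2 array above every WT array. It was 0.66 on slide 1 and 0.64 on slide 2. PRR7 at -0.07, PRR5 at 0.12, PRR3 at -0.12 and TOC1, the evening member, at -0.11 had SE of 0.10 to 0.11. All 5 intervals were within 2-fold. Of the LNK coactivators, LNK3 was at 0.50 (SE 0.10, adjusted p = 0.115) without overlap of the genotypes, whereas LNK4, LNK1 and LNK2 were at 0.22, 0.09 and 0.07. LNK4 was at 0.08 without WT replicate 2 and 0.40 without WT replicate 4, and LNK1 at 0.003 without WT replicate 4.

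The evening group, made up of the evening complex, GI and the ZTL family of light-sensing proteins, holds several genes that CCA1 and LHY repress. Of its 8 genes, 6 had lower means in DGTT2, as did 15259 of all 30361 features. Of the 8, 0 passed, against 0.0725% of all features. An unadjusted p under 0.05 (limma) was seen in 2, where 10.5% of all features had one. BOA, a relative of the evening complex gene LUX, was at -0.58 (SE 0.15, adjusted p = 0.2, limma). ELF4, of the evening complex, was at -0.39 (SE 0.12, adjusted p = 0.28). Both were lower in all DGTT2 arrays than in any WT array. LUX was at -0.14, with 0.10 on slide 1 and -0.38 on slide 2. GI, a large evening protein of the flowering pathway, was at -0.11. LKP2 was at -0.12, ELF3 at -0.04, FKF1 at 0.03 and ZTL at 0.14. The SE of LUX, GI and these genes were 0.09 to 0.12. All 8 intervals were within 2-fold.

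Of 5 other clock genes, JMJ30, an evening-phased histone demethylase gene, had the smallest p of the 41 and was at 12.26 ± 0.05 in DGTT2 and 13.07 ± 0.26 in WT (SD, n = 4 each). The difference was -0.81 (SE 0.13, adjusted p = 0.0852, limma), with -0.96 on slide 1 and -0.66 on slide 2. It passed with a trended, robust variance prior (adjusted p = 0.00966). TIC at -0.05 and LWD1 at 0.04 were near 0.

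Among 19 output genes 0 passed, against 0.0725% of all features, and 9 means were higher and 10 lower. An unadjusted p under 0.05 (limma) was seen in 5, where 10.5% of all features had one. The median difference without its sign was 0.09 over the 19 and 0.12 over all features, and not all 19 are named below. GBSS1, a starch synthase gene that CCA1 and LHY regulate, was at 0.52 (SE 0.12, adjusted p = 0.156, limma). The cold-regulated gene COR27, a target of CCA1, was at -0.56 (SE 0.13, adjusted p = 0.177) and its relative COR28 at -0.28 (SE 0.21), or -0.12 without WT replicate 1. The 2 genes known as targets of RVE1 in seedlings went opposite ways. PORA, of chlorophyll synthesis, was at 0.89 (SE 0.27, adjusted p = 0.27) and YUC8 at -0.85 (SE 0.34, adjusted p = 0.415), and YUC8 was at -0.54 without WT replicate 4. HY5, a bZIP factor of light signalling, was at 0.41 (SE 0.15, adjusted p = 0.388). Its values of 7.28 to 8.26 also lay largely within the range of the root, flower and seed markers.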

How the data were processed

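Leaf RNA of 8 samples was labelled with Cy3 and measured on 1-colour NimbleGen arrays. A single table of log2 values per feature and array was deposited by the authors, and the submitters' processing notes name RMA and Partek for it. Their settings, the probes and the build are not given in the labels. That the scale is log2 was read from the values (4.20 to 15.99). Because RMA brings the distributions of the arrays close together, a change of most transcripts in 1 direction could be hidden, and no detection calls were used. The deposited values were not fully equalised, with array medians from 10.19 to 10.28. The number of arrays limits the precision.

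Features were named by locus; 29976 of 30361 matched the RefSeq table of TAIR10.1, used for names and biotypes alone. Tests were made with R 4.3.3 and limma 3.58.1 (functions lmFit and eBayes, two-sided, Benjamini-Hochberg over all features, threshold 0.05), with genotype as the only term, or with genotype and slide for the slide test. The fits were tested on simulated data. Within-genotype SD is the residual SD of the genotype fit. Alternatives were other scalings, a filter on dim features, slide or replicate number as a block, another variance prior and each array left out. The labels call the replicates biologically independent.

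The genes, the 41 further genes and the markers were chosen with earlier results of these data known. All 10 family members are named, and of the other genes those with the 3 smallest p in each group and others of the fixed lists; features most like CCA1, LHY and RVE8 are the 3 of highest r.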

Additional observations from a re-analysis of the deposited data

Results flagged for a closer look

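In 102 sets of 4 arrays (51 genes in 2 genotypes), 5 held 1 array far from the other 3 by Dixon's test at the 95% level, which chance gives in about 1 of 20. LHY was at 9.92 in DGTT2 replicate 4 and between 10.36 and 10.43 in the other DGTT2 arrays, and no other family member met this criterion. Without that array the LHY difference was 0.68 in place of 0.56. PRR9 was at 10.96 in DGTT2 replicate 2 and between 10.82 and 10.83 in the others. CDF3, of the Dof repressors of flowering, was at 13.71 in DGTT2 replicate 2 against 13.86 to 13.88. CDF5 was at 12.36 in WT replicate 2 against 12.50 to 12.51. PORA was at 13.62 in WT replicate 4 against 12.63 to 12.73, and without that array its difference was 1.13 in place of 0.89.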

How the results depend on the processing

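In 12 of the 17 settings the difference between genotype means can move, and in these CCA1, LHY, RVE8 and RVE1 were higher and RVE2 and RVE6 lower in DGTT2. The other 5 leave it as it is by their construction. In all 17, 0 of the 10 family members were called. The number with a higher mean was 8, 6 to 8 without 1 array, and 5 with arrays centred on their medians, because RVE3, RVE4 and RVE5 lie near 0. Array medians were higher in DGTT2 by 0.0379 on average. Centring takes this offset from every difference, and RVE4 had a difference of 0.0357 before it. The genotypes did not overlap in 7 genes on slide 1 alone (35.4% of all features) and in 5 on slide 2 alone (32.6%), with 2 arrays a genotype, and in 3 to 5 without 1 array (5 without DGTT2 replicate 4, with 9.07% of all features). The median over the 10 was 0.08, and 0.005 to 0.15 without 1 array.

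Over all features 22 were called, 13 with median centring, 46 with the trended and robust prior, 69 with slide as a fixed block, 1 on either slide alone and 5 to 39 without 1 array. With the replicate number as a block there were 3. Same-numbered samples deviated together by r of 0.07, 0.20, -0.03 and -0.02 across features, and 1 of 4 DGTT2 samples was nearest to its own number. With slide removed, r was -0.14 for replicates 1 and 3 and -0.005 for replicates 2 and 4. Replicates on the same slide share a value by construction, because each slide held 2 arrays of each genotype. Of the other genes, 1 was called with the trended and robust prior (JMJ30). The difference changed sign in LUX (0.10 on slide 1 alone, -0.38 on slide 2 alone) and PRR5 (-0.0265 on slide 1 alone, 0.26 on slide 2 alone). It also did so in TIC (0.0852 on slide 2 alone, and -0.14 to 1e-04 without 1 array), LWD1 (-0.00035 centred on medians, and -0.0158 to 0.0716 without 1 array) and LNK2 (-0.00812 to 0.13 without 1 array). Slide differences without 1 array ran from -0.0626 to 0.26 in RVE1, -0.22 to 0.0377 in RVE3 and -0.17 to 0.0381 in RVE7. RVE3 has no value under the filter on dim features. The causes of these changes were not tested.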
